A study of Rattus norvegicus with 59 samples.

Results

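The genes described here encode heat shock proteins of the cytosol and of mitochondria: Hspa8, Hspa9, Hsph1, Dnaja1, Dnajb1, Hspb1, Hspb8, Hsp90aa1, Hspd1 and Hspe1. They were found in RNA of whole rat liver by gene symbol in the array's annotation. That step used no measured values, but the genes themselves were chosen with earlier results of these data known. Of the 10 genes, 8 had a probe set with their symbol alone, on 15 of the array's 31042 probe sets that are not array controls. Hspa8 and Hsp90aa1 were annotated only on 3 probe sets that carry a further symbol (Hspa8 with Haus8l2, Hsp90aa1 with the pseudogene Hsp90aa1-ps17). These 3 are described as shared probe sets and stand outside the counts of 8.

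The exposed rats were male Sprague-Dawley rats given a single intraperitoneal injection of CdCl2 (Cd) at 1.25 mg/kg or Na2Cr2O7 (Cr), which the labels give as 20 mg/kg. The study's methods name its middle dose for the Cr arrays in 1 sentence and its high dose, the one in the labels, in another. Controls received sterile saline, and each metal had its own controls. Livers were taken on days 1, 3 and 7, with 5 exposed and 5 control livers for each metal and day, except 4 Cd-exposed livers on day 1. The fifth liver of that group was left out by the authors, who measured no Cd in its tissue and saw its array fall among the controls, so that choice was not independent of the arrays. The age of the rats and the time of injection were not given in the sources used here.

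Heat shock proteins are molecular chaperones, which hold, fold or refold other proteins. HSP70 proteins bind short exposed stretches of a client and release them in a cycle driven by ATP, J-domain proteins (formerly HSP40) deliver clients and start the ATPase step, exchange factors such as the HSP110 protein Hsph1 reset the cycle, HSP90 completes the folding of kinases and steroid receptors, and the mitochondrial chaperonin Hspd1 with its lid Hspe1 folds imported proteins. Small heat shock proteins hold unfolding clients without ATP. Many of these genes are switched on by heat shock factor HSF1, which binds repeated GAA units in alternating orientation, called heat shock elements.

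The promoters are shown because those elements are what ties most of these genes together in textbook accounts. RefSeq windows of 300 bases, from 250 bases before to 50 after a transcript's start site on the build GRCr8, were found for 9 of the 10 genes. For 6 of the 9 that site is the first base of the RefSeq gene span, and in the other 3 it lies inside the span, by 295 bases in Hspd1, 1409 in Hspb8 and 4560 in Hspa9. They were searched on both strands for 3 alternating units (GAANNTTCNNGAA or TTCNNGAANNTTC) and for 2 (GAANNTTC or TTCNNGAA), and every match of the 3-unit letters also holds the 2-unit letters. The 3-unit letters were in 5 of the 9 windows (Hspa8, Hsph1, Dnaja1, Hspd1 and Hspe1) and in 0.798% of all 33469 promoter windows. The 2-unit letters were in 9 of 9, against 15.9% of all windows. Among the 6 windows at the start of the gene span, 4 held the 3-unit letters and 6 the 2-unit letters. A match is a run of letters and was not tested as a binding site here. The first 280 bases of 5 windows are printed 5′ to 3′ on the gene's strand, with the matches in capitals. Hsph1, Dnaja1, Hspa8 and Hspe1 are shown for the 3-unit letters, and Hspb1, which had the largest day 1 fold change after Cr among the 8 genes, for a window with only 2-unit matches.
Hsph1: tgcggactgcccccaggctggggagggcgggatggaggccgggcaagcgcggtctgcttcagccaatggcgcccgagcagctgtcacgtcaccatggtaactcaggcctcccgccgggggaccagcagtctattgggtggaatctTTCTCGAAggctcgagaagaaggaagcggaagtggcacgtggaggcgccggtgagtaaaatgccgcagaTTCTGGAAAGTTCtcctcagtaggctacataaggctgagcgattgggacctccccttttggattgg
Dnaja1: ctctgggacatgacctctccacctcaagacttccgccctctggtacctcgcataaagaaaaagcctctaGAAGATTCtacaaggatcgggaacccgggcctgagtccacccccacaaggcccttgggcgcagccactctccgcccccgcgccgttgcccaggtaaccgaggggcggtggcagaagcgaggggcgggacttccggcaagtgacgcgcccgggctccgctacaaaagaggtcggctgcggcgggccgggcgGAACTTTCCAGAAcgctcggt
Hspa8: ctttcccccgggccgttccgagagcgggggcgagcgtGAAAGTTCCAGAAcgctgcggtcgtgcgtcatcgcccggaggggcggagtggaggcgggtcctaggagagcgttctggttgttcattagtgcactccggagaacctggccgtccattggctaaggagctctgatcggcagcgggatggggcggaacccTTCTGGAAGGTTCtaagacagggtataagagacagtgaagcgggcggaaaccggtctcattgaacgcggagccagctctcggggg
Hspe1: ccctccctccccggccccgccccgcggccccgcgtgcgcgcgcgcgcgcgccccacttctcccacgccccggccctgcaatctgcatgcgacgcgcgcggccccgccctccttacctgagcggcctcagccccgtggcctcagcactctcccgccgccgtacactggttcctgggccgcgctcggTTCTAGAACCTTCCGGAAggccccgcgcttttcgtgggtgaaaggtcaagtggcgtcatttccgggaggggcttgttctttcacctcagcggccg
Hspb1: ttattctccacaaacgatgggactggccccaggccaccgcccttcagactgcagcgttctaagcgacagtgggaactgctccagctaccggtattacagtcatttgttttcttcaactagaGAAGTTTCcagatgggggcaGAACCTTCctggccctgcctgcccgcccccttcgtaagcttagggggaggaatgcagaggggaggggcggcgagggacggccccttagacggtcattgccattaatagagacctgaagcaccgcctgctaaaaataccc
These stretches lie at chr12:10427118-10427397 (+ strand) for Hsph1, chr5:60638154-60638433 (+) for Dnaja1, chr8:50080264-50080543 (+) for Hspa8, chr9:64084077-64084356 (+) for Hspe1 and chr12:26432272-26432551 (- strand) for Hspb1. Each holds promoter sequence and the first 30 bases of the gene. The 3-unit match of Hsph1 began 36 bases before its start, and that of Dnaja1 began 9 bases after it. In Hspb1 the 2-unit matches began 129 and 109 bases before the start.

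Hspd1 and Hspe1 lie head to head on chromosome 9, and their RefSeq gene spans overlap by a few bases at their starts. The start sites of their windows are 290 bases apart, since the window of Hspd1 begins from a site inside its span. The same 18 bases, chr9:64084262-64084279, gave the matches of both. They read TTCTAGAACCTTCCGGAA on the strand of Hspe1 and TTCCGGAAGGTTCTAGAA on that of Hspd1. The remaining genes lie apart, on chromosomes 5 (Dnaja1), 6 (Hsp90aa1), 8 (Hspa8), 12 (Hsph1, Hspb1 and Hspb8), 18 (Hspa9) and 19 (Dnajb1), of which Hsph1, Hspb1 and Hspb8 are not neighbors on chromosome 12.

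All values are log2 signals as deposited, so a difference of 1 is a doubling of signal. A gene is given by its brightest probe set (main probe set), and its other probe sets stand beside it. Signals of different genes are not set against each other, since probe sets differ in brightness. Each exposed group was compared with its own same-day controls with limma, and a difference was called where its adjusted p, taken over all probe sets tested, was at most 0.05 (17231 probe sets for Cd and 17373 for Cr). Of the 15 probe sets with 1 symbol, 14 passed the filter on low signal for each metal, and all 8 main probe sets were among them. The probe set left out was a dim one of Hspa9.

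No pair of arrays held identical values, and the mean correlation of an array with its own group lay between 0.986 and 0.994, lowest for Cr-exposed liver 5 of day 1. The liver label was borne out by 8 of 8 hepatocyte markers, with signals of 7.29 (Tat) or more on every array. On day 1 the hepatocyte sums were 103077 to 115532 in Cd-exposed livers and 116448 to 121392 in Cd control livers, which did not overlap, with 3 of 8 markers called lower, and 112552 to 119676 in Cr-exposed livers and 117512 to 120728 in Cr control livers, with 1 higher and 2 lower. Some markers of other cell types moved as well. The 8 Kupffer cell markers tested were lower after Cd in 8 of 8, with summed linear signals of 318 to 2273 in exposed livers and 4196 to 5861 in control livers, and after Cr 1 of the 8 was higher and none lower (4436 to 6541 in exposed and 4126 to 5653 in control livers). The 4 neutrophil and monocyte markers tested for Cd were all higher, with sums over 8 listed markers of 3473 to 6800 in exposed livers and 972 to 2379 in control livers, and for Cr 2 of 3 were higher, with sums of 1249 to 2733 in exposed and 936 to 1691 in control livers. Of these 8 markers, 5 averaged below a log2 signal of 5. A dim marker can pass the filter on low signal through the exposed group alone, so these counts lean toward higher calls. Of the 6 sinusoidal endothelial markers tested, 2 were higher after Cd (sums of 4040 to 5957 in exposed and 1911 to 4294 in control livers) and 2 after Cr (3342 to 5283 in exposed and 3888 to 4389 in control livers). Of 7 stellate cell markers tested, 1 was higher after Cd (2919 to 4892 in exposed and 2123 to 7370 in control livers), and 2 were higher and 1 lower after Cr (3342 to 5123 in exposed and 3381 to 3709 in control livers). The cholangiocyte markers summed over 5 genes, of which 3 averaged below a log2 signal of 5, to 427 to 1262 in Cr-exposed and 309 to 463 in Cr control livers (2 of 2 tested higher), and to 272 to 407 in Cd-exposed and 329 to 449 in Cd control livers (1 of 2 lower). No lymphocyte marker had enough signal to be tested. Over all probe sets tested on day 1, 12.2% were higher and 9.89% lower after Cd, and 26.0% higher and 17.1% lower after Cr. The stellate cell counts after both metals and the sinusoidal endothelial count after Cr are near these shares. In RNA of whole liver, fewer cells of a type and less RNA per cell cannot be told apart, and the part of these cells in the results below was not tested.

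On day 1 after Cr, heat shock genes rose together. Of the 8 genes, 8 were called higher, against 26.0% of all probe sets tested, and 0 were called lower (17.1% of all probe sets). Since the genes were chosen with earlier results of these data known, such shares describe them and are no test of the set. The largest changes were those of the small heat shock protein Hspb1 (2.16-fold, 95% confidence interval 1.35 to 3.46) and of Hsph1 (1.97-fold, 1.62 to 2.39), and the smallest that of mitochondrial Hspa9 (1.14-fold, 1.04 to 1.24). The median log2 fold change was 0.49, beside 0.03 over all probe sets tested. A fold change of 1.8 or more was reached by 2 of the 8 genes, and by 2.55% of all probe sets in the same direction. Every exposed liver lay above every control liver for 5 of the 8 (11.8% of all probe sets). On the 3 shared probe sets the values of Hspa8 and Hsp90aa1 were also higher. The plot of single livers shows all 10 genes.

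**Figure D1:**
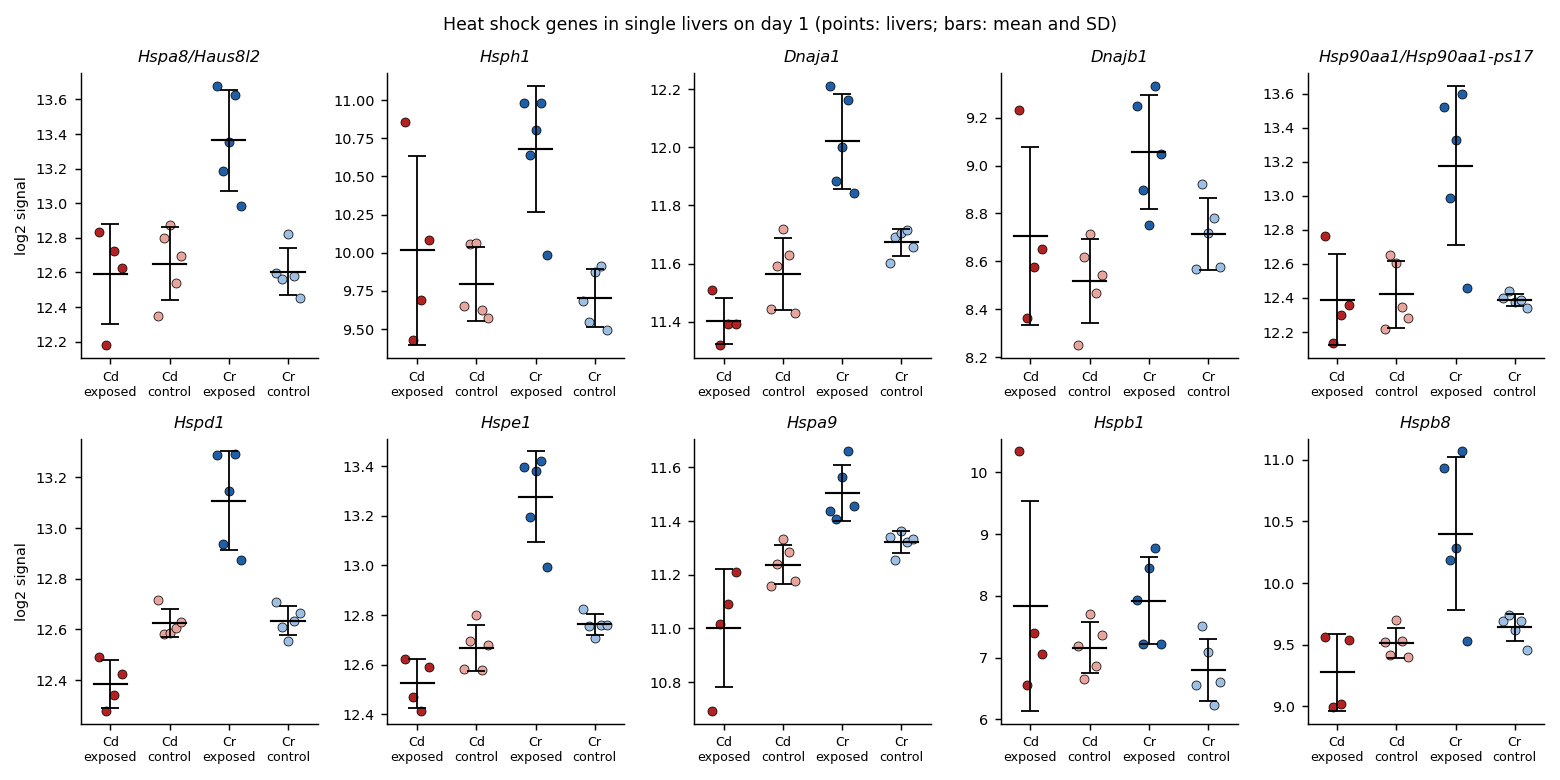
Log2 signal of 8 heat shock genes on their main probe sets, and of the shared probe sets of Hspa8 and (the brighter one) of Hsp90aa1, in each liver on day 1, for Cd-exposed (n = 4), Cd control, Cr-exposed and Cr control livers (n = 5 each); points are livers, lines and bars are mean and SD, and each panel has its own axis. After Cr the exposed livers lie above all control livers for Hsph1, Dnaja1, Hspd1, Hspe1 and Hspa9, and 1 Cd-exposed liver lies at 10.34 for Hspb1, far above the others.

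Hspa8 is the constitutive HSP70 of the cytosol. Its shared probe set Hspa8/Haus8l2 had log2 signals of 13.68, 13.19, 13.35, 13.62 and 12.98 in Cr-exposed livers 1 to 5, against 12.60, 12.56, 12.82, 12.58 and 12.45 in Cr control livers. The groups did not overlap. Their means differed by 0.76 on the log2 scale (SE 0.11, adjusted p = 5.4e-06), and how much of it belongs to each symbol cannot be read from this probe set, although the accession it was annotated with is that of Hspa8.

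Hsph1, the HSP110 exchange factor of HSP70, had signals of 10.98, 10.64, 10.81, 10.98 and 9.98 in Cr-exposed livers and 9.68, 9.55, 9.88, 9.91 and 9.49 in Cr control livers. Liver 5 lay just above the highest control and the other 4 well above it. Hsph1 rose by 0.98 on the log2 scale (SE 0.14, adjusted p = 3.1e-06), and the second probe set of Hsph1 gave 1.21 (SE 0.15).

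Dnaja1 and Dnajb1 are J-domain partners of cytosolic HSP70. Dnaja1 had 12.21, 11.88, 12.002, 12.16 and 11.84 in Cr-exposed livers and 11.60, 11.69, 11.71, 11.72 and 11.66 in Cr control livers. The groups did not overlap, and the log2 fold change was 0.35 (SE 0.07, adjusted p = 0.00017). The second probe set of Dnaja1 did not pass: it had 10.22 to 10.60 in exposed and 10.38 to 10.61 in control livers, a difference of 0.02 (SE 0.08, adjusted p = 0.88). For Dnajb1 the signals were 9.25, 8.90, 8.75, 9.33 and 9.05 in Cr-exposed livers and 8.57, 8.92, 8.72, 8.78 and 8.58 in Cr control livers. Here the groups overlapped, and the log2 fold change was 0.34 (SE 0.10, adjusted p = 0.0052). On its dimmer probe set Dnajb1 did not overlap between groups, with 7.75 to 8.53 in exposed and 7.20 to 7.35 in control livers and a difference of 0.87 (SE 0.13, adjusted p = 3.9e-06).

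Hsp90aa1 is the inducible form of cytosolic HSP90. The brighter probe set Hsp90aa1/Hsp90aa1-ps17 had 13.52, 12.99, 13.33, 13.60 and 12.46 in Cr-exposed livers and 12.40, 12.44, 12.37, 12.39 and 12.34 in Cr control livers. Liver 5 exceeded the highest control by little, and the others by far more than the spread of the controls. This probe set was higher by 0.79 (SE 0.14, adjusted p = 3.6e-05). On the other shared probe set liver 5 had 11.42, inside the control range of 11.30 to 11.74, and the log2 fold change was 1.04 (SE 0.21, adjusted p = 0.00029).

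The mitochondrial chaperonin subunits Hspd1 (HSP60) and Hspe1 (HSP10) rose in every exposed liver. Hspd1 had 13.29, 12.94, 13.15, 13.29 and 12.87 in Cr-exposed livers and 12.71, 12.61, 12.56, 12.63 and 12.66 in Cr control livers. Hspe1 had 13.40, 13.19, 13.38, 13.42 and 12.99 in Cr-exposed livers and 12.82, 12.76, 12.71, 12.76 and 12.76 in Cr control livers. In both genes every exposed liver lay above every control. The rises were close to each other, at 0.47 for Hspd1 (SE 0.07, adjusted p = 2.6e-06) and 0.51 for Hspe1 (SE 0.07, adjusted p = 3.8e-06).

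Hspa9, the HSP70 of the mitochondrial matrix that pulls in and folds imported proteins, changed least. Its signals were 11.44, 11.41, 11.56, 11.66 and 11.45 in Cr-exposed livers and 11.34, 11.25, 11.36, 11.32 and 11.33 in Cr control livers. Its log2 fold change was 0.18 (SE 0.06, adjusted p = 0.015), and it did not pass without exposed liver 4 (0.14, adjusted p = 0.062). The other 2 probe sets of Hspa9 that were tested did not pass, at 0.26 (SE 0.11, adjusted p = 0.055) and 0.36 (SE 0.38, adjusted p = 0.47).

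Hspb1 (HSP27 family) and Hspb8 (HSP22, which works with the exchange factor BAG3) are small heat shock proteins. Hspb1 had 7.93, 7.22, 8.45, 8.77 and 7.22 in Cr-exposed livers and 6.56, 7.52, 7.10, 6.24 and 6.603 in Cr control livers. Control liver 2 lay above exposed livers 2 and 5, and the spread was wide in both groups. Hspb1 rose by 1.11 on the log2 scale (SE 0.33, adjusted p = 0.0078). For Hspb8 the values were 10.93, 10.18, 10.29, 11.07 and 9.53 in Cr-exposed livers and 9.69, 9.74, 9.62, 9.69 and 9.45 in Cr control livers. Only liver 5 fell inside the control range. Hspb8 rose by 0.76 on the main probe set (SE 0.16, adjusted p = 0.00038), and 0.96 (SE 0.19) on its second probe set.

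The Cr-exposed livers of day 1 differed among themselves in a way that most of the genes shared. Liver 4 was the highest of the 5 for 6 of the 8 genes and liver 5 the lowest for 6 of the 8. Averaged over the 8 genes, the log2 difference from the control mean was 0.93 in liver 4, 0.77 in liver 1, 0.64 in liver 3, 0.39 in liver 2 and 0.21 in liver 5. Given for livers 4, 1, 3, 2 and 5 in turn, the cholangiocyte markers summed to 1185, 1262, 760, 587 and 427, a similar order. The sinusoidal endothelial sums ran the reverse way, at 3342, 4005, 4249, 4479 and 5283, and so did the hepatocyte sums, at 112552, 114538, 114882, 118877 and 119676. Other sums did not keep to either order throughout. They were 4436, 5488, 6047, 5215 and 6541 for Kupffer cell markers and 1620, 2733, 2119, 1913 and 1249 for neutrophil and monocyte markers. For stellate cell markers they were 3439, 3342, 4281, 3659 and 5123. The part of these cell types in the spread of the heat shock genes was not tested. Without liver 5 the count stayed at 8 of 8 called higher, with a median of 0.56, beside 28.4% of all probe sets called higher.

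After Cd, by contrast, none of the 8 genes was called higher on day 1 (12.2% of all probe sets were), and 1, Hspd1, was called lower (9.89% of all probe sets). The median log2 fold change was -0.15, beside 0.01 over all probe sets tested. Among main probe sets only Hspd1 and Hspa9 differed at an unadjusted p below 0.05. Of 6 further probe sets 0 were called. They ran from -0.20 for Dnaja1 (SE 0.08, adjusted p = 0.092) to 0.41 for Hsph1 (SE 0.20, adjusted p = 0.15). Hspd1 had 12.49, 12.28, 12.34 and 12.43 in Cd-exposed livers 1, 2, 4 and 5, against 12.72, 12.58, 12.59, 12.61 and 12.63 in Cd control livers. Every exposed liver lay below every control, as for 7.81% of all probe sets. Hspd1 fell by 0.24 on the log2 scale (SE 0.08, adjusted p = 0.037), and the call was lost when any 1 of exposed livers 2 and 4 or control livers 1, 4 and 5 was left out (adjusted p up to 0.11) or with no filter on low signal (0.061).

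Cd-exposed liver 1 stood apart from the other 3. For Hspb1 it had 10.34, against 6.56, 7.41 and 7.06 in exposed livers 2, 4 and 5 and 6.65 to 7.71 in Cd control livers. For Hsph1 it had 10.86, against 9.43, 9.69 and 10.08 in the other exposed livers and 9.57 to 10.07 in Cd control livers, and for Dnajb1 9.23, against 8.36 to 8.65 and 8.25 to 8.71. It was the highest Cd-exposed liver for 7 of the 8 genes and the lowest for Hspa9, where it had 10.69, against 11.02 to 11.21 in the other exposed livers. Over the 4 exposed livers the log2 fold changes were 0.68 for Hspb1 (SE 0.45, adjusted p = 0.31), 0.22 for Hsph1 (SE 0.20, adjusted p = 0.49) and 0.19 for Dnajb1 (SE 0.15, adjusted p = 0.41). Without liver 1 they were -0.15 for Hspb1, -0.06 for Hsph1 and 0.01 for Dnajb1. Among the Cd controls of day 7 the highest value for Dnajb1 was 9.38, above that of exposed liver 1. The highest there for Hspb1 (7.98) and Hsph1 (10.20) lay below those of exposed liver 1. The summed Kupffer cell signal of liver 1 (391.9) was within the range of the other Cd-exposed livers (318 to 2273), and its neutrophil and monocyte sum (6800) was above theirs (3473 to 4790). On the shared probe sets Cd gave -0.06 for Hspa8/Haus8l2 (SE 0.16, adjusted p = 0.84) and -0.03 and -0.17 for Hsp90aa1/Hsp90aa1-ps17.

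**Figure D2:**
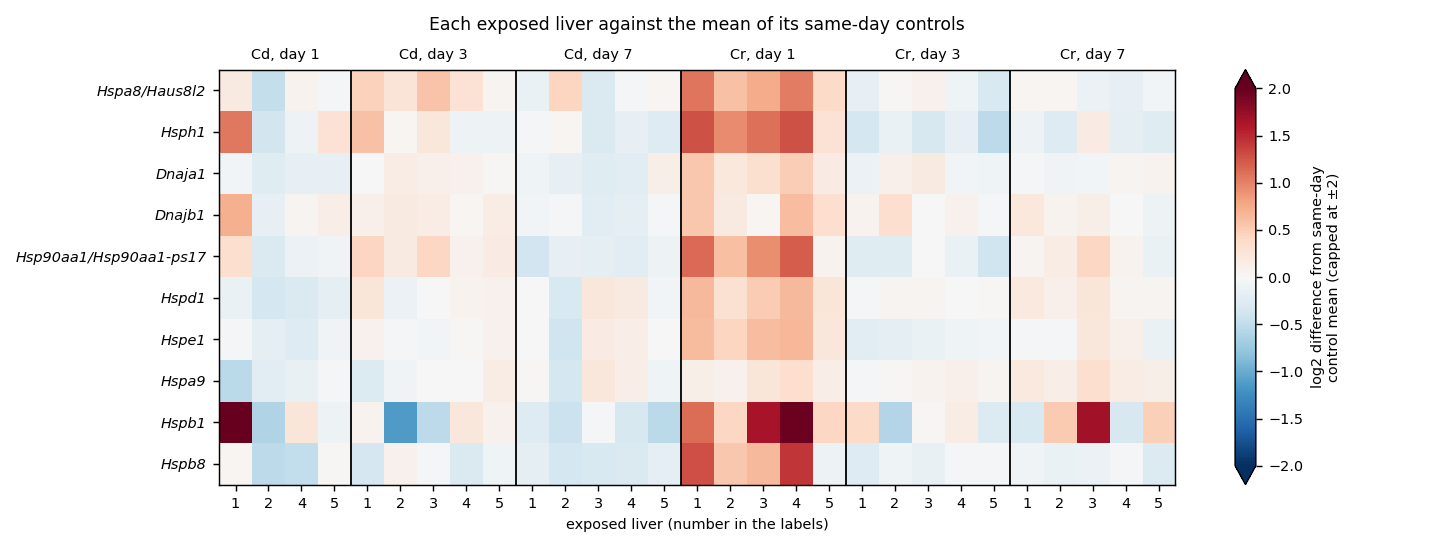
Log2 difference of each exposed liver from the mean of its same-day controls, for Cd and Cr on days 1, 3 and 7, with 10 heat shock genes down the side (8 on main probe sets and Hspa8 and Hsp90aa1 on shared ones); columns are livers, red is higher and blue lower than the control mean, and colors stop at a difference of 2 either way. The Cr livers of day 1 are red for nearly all genes, palest in liver 5, and Cd liver 1 of day 1 is red for Hsph1, Dnajb1 and Hspb1.

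The difference between the metals was then tested itself, as the Cd effect minus the Cr effect on day 1. It was below 0 for 8 of 8 genes and was called for 6, against 14.2% of all probe sets called in that direction. The largest called difference was that of Hspb8, at -0.998 (SE 0.22, adjusted p = 0.00064), followed by Hsph1 at -0.76 (SE 0.25, adjusted p = 0.022), Hspd1 at -0.71 (SE 0.10, adjusted p = 2.2e-06), Hspe1 at -0.66 (SE 0.11, adjusted p = 2.2e-05), Dnaja1 at -0.51 (SE 0.10, adjusted p = 0.00026) and Hspa9 at -0.42 (SE 0.12, adjusted p = 0.0077). Hspb1 and Dnajb1 were not called on their main probe sets. Their differences were -0.43 for Hspb1 (95% confidence interval -1.59 to 0.72) and -0.16 for Dnajb1 (-0.51 to 0.20). Of 6 further probe sets, 3 were called. The dimmer probe set of Dnajb1 was called, at -0.71 (SE 0.19, adjusted p = 0.0041). So were the second probe sets of Hsph1, at -0.79, and Hspb8, at -0.92. The second probe set of Dnaja1 was not called, at -0.21 (adjusted p = 0.16). Neither further probe set of Hspa9 passed: the brighter gave -0.41 with an adjusted p of 0.084, the dimmer -0.12 with one of 0.91. On its main probe set Dnajb1 had an adjusted p of 0.15 or more with any array left out. Without Cd liver 1 the difference for Hspb1 was -1.26 (adjusted p = 0.045). Leaving out Cd-exposed liver 2 or 4, or Cr-exposed liver 1 or 4, left Hsph1 not called (adjusted p up to 0.099). All 3 shared probe sets were called, from -0.82 to -1.21. The metals were given at unlike doses, so this compares these exposures and not the metals at a matched dose.

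The rise after Cr was seen on day 1 and was not detected later: 0 of the 8 genes was called after either metal on day 3 or day 7. Few probe sets were called at all: 0.0115% on day 3 and 0.224% on day 7 after Cr, and 1.32% on day 3 and 0.0232% on day 7 after Cd, both directions together. At an unadjusted p below 0.05, among the main probe sets, the only differences were Hsph1 on day 3 after Cr (-0.30, SE 0.14, adjusted p = 0.56) and Hspa9 on day 7 after Cr (0.18, SE 0.06, adjusted p = 0.21). The shared probe set Hspa8/Haus8l2 was 0.33 above controls on day 3 after Cd (SE 0.15, adjusted p = 0.39), with 4 of 5 exposed livers above every control. The brighter probe set Hsp90aa1/Hsp90aa1-ps17 was 0.25 above controls there (SE 0.12, adjusted p = 0.41). For Hspa9 on day 7 every Cr-exposed liver lay above every control, as for 1.88% of all probe sets, and for Hsph1 on day 3 every exposed liver lay below every control, as for 0.823%. On main probe sets the 8 genes had log2 fold changes of -0.30 to 0.09 on day 3 and -0.13 to 0.41 on day 7 after Cr. After Cd they had -0.26 to 0.13 on day 3 and -0.31 to 0.01 on day 7. The upper value on day 7 after Cr was that of Hspb1, which had 8.59 in exposed liver 3, against 6.59 to 7.44 in the other exposed livers and 6.16 to 7.42 in controls. Of 6 further probe sets 0 were called on days 3 and 7 after either metal. On day 3 after Cr they ran from -0.34 for Hsph1 (SE 0.15, adjusted p = 0.48) to 1.04 for the dimmer one of Hspa9 (SE 0.38, adjusted p = 0.37). The second probe set of Dnaja1 was then at -0.24 (SE 0.08, adjusted p = 0.25), beside 0.0067 on its main probe set. The test of Cd against Cr called 0 of 8 genes on day 3 (0.0414% of all probe sets) and 0 of 8 on day 7 (0.668%).

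The change between days 1 and 3 after Cr was tested as the day 1 effect minus the day 3 effect, and 5 of 8 genes were called higher on day 1, against 14.0% of all probe sets. They were Hsph1 (1.27, SE 0.20, adjusted p = 9.0e-05), Hspb8 (0.88, SE 0.23), Hspe1 (0.65, SE 0.10), Hspd1 (0.45, SE 0.09) and Dnaja1 (0.34, SE 0.10, adjusted p = 0.012). Hspb1 at 1.17 (SE 0.47, adjusted p = 0.070), Dnajb1 at 0.25 (SE 0.14, adjusted p = 0.19) and Hspa9 at 0.14 (SE 0.09, adjusted p = 0.24) did not pass. These are main probe sets, and 3 of 6 further ones were called. On its second probe set Dnajb1 passed (0.85, SE 0.18, adjusted p = 0.0013) and Dnaja1 did not (0.26, SE 0.11, adjusted p = 0.084). With controls pooled over days, where they cancel and Cr-exposed livers of day 1 are set straight against those of day 3, 8 of 8 passed. After Cd the same test called 0 of 8, against 10.7% of all probe sets, with 2 at an unadjusted p below 0.05.

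**Figure D3:**
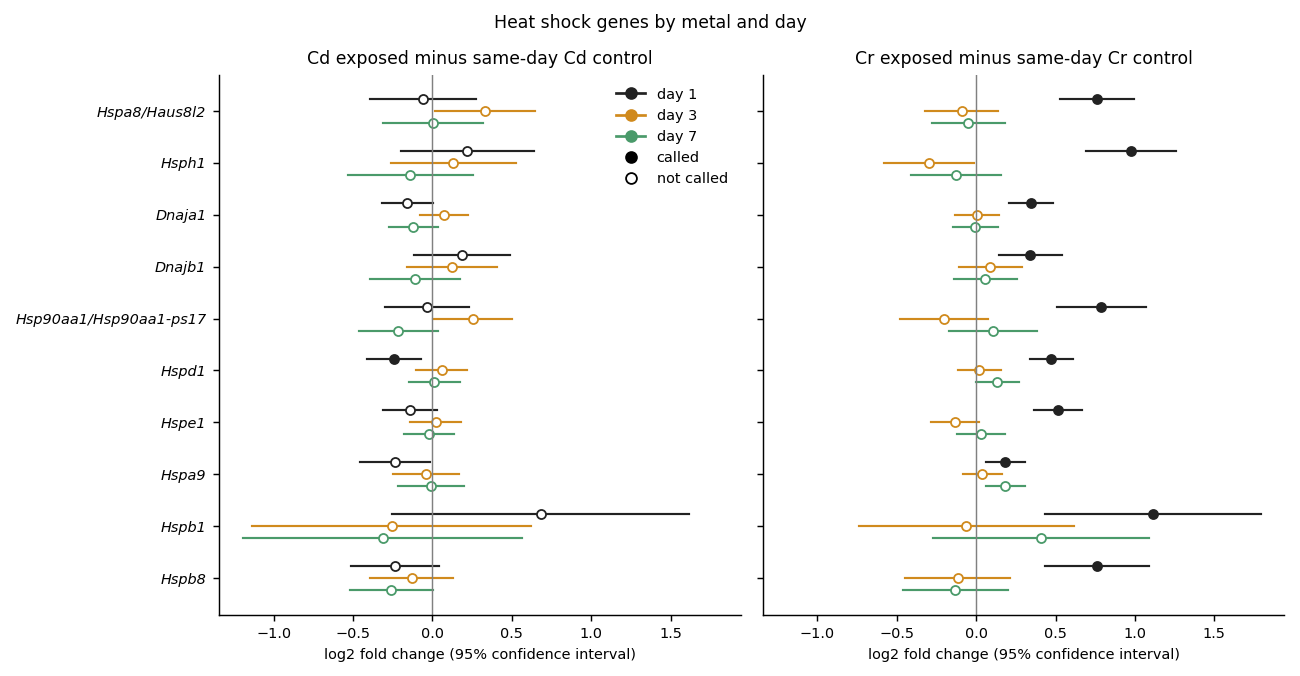
Log2 fold change with its 95% confidence interval for 10 heat shock genes (8 on main probe sets, Hspa8 and Hsp90aa1 on shared ones), exposed minus same-day control, for Cd on the left and Cr on the right, on days 1, 3 and 7; filled points passed the threshold of 0.05 for the adjusted p. For Cr the day 1 points are filled for all 10 and those of days 3 and 7 are not, and for Cd only Hspd1 on day 1 is filled.

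The chaperones and helpers around these genes were taken from 6 further lists of 74 genes, of which 62 were tested for both metals. These lists, too, were chosen with earlier results of these data known. On day 1, 41 of the 62 were higher and 5 lower after Cr, and 7 were higher and 4 lower after Cd. Over all probe sets tested, 26.0% were higher and 17.1% lower after Cr, and 12.2% higher and 9.89% lower after Cd, so that 7 and 4 of 62 after Cd are no larger shares than those over all probe sets. The list counts that follow are to be read against the same 4 shares. On days 3 and 7 none of the 62 was called after either metal. The plot of the lists shows each gene's day 1 value.

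Among cytosolic HSP70 relatives and exchange factors, 9 of 12 genes rose after Cr (median 0.32; 26.0% of all probe sets) and 4 of 12 after Cd (median 0.12; 12.2% of all). They included the exchange factors Hspbp1 (0.73, SE 0.13) and Bag2 (0.57, SE 0.10) and the HSP70 relative Hspa14 (0.58, SE 0.08) after Cr, and Hspa14 after Cd (0.36, SE 0.12, adjusted p = 0.024). Hspa1a, the classical stress-inducible HSP70, has a near-identical copy, Hspa1b, whose RNA this probe set may also bind. It had 10.59, 6.01, 6.28 and 7.75 in Cd-exposed livers 1, 2, 4 and 5, against 5.00, 5.57, 6.18, 4.95 and 5.52 in Cd control livers. Liver 1 was again the highest, and exposed liver 2 lay below control liver 3. Some of the Cd control values lay near the filter of 5 on log2 signal. A high value also occurred without exposure: Cd control liver 5 of day 7 had 9.08, against 5.30 to 6.04 in the other Cd controls of that day. Hspa1a rose by 2.22 on the log2 scale after Cd (SE 0.68, adjusted p = 0.019), and without liver 1 the difference was 1.24 (SE 0.58, adjusted p = 0.15). After Cr it had 6.74, 5.62, 6.28, 6.82 and 6.23 in exposed livers and 5.03, 5.84, 5.73, 5.34 and 5.87 in control livers, a rise of 0.78 (SE 0.25, adjusted p = 0.012). The Cd effect exceeded the Cr effect by 1.44, which did not pass (SE 0.73, adjusted p = 0.15).

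Of the cytosolic J-domain proteins, 9 of 14 rose after Cr (median 0.31), against 26.0% of all probe sets, among them Dnajc2, which works at the ribosome (0.72, SE 0.12), Dnajb4 (0.61, SE 0.12) and Dnaja2 (0.61, SE 0.10). After Cd 1 of 14 rose and 1 fell, no larger a share than over all probe sets (12.2% and 9.89%). The gene that fell was Dnajc9, a histone chaperone (-0.58, SE 0.09, adjusted p = 1.5e-05), which rose after Cr (0.32, SE 0.11, adjusted p = 0.015). The difference between the metals for Dnajc9 was -0.91 (SE 0.14, adjusted p = 6.0e-06).

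HSP90 relatives and co-chaperones had the highest median of the 6 lists after Cr, 0.56, with 12 of 14 higher and 0 lower (26.0% and 17.1% of all probe sets). Chordc1, an HSP90 co-chaperone, was at 0.97 (SE 0.11), the cyclophilin Ppid at 0.86 (SE 0.10) and the constitutive HSP90 gene Hsp90ab1 at 0.84 (SE 0.11). After Cd 1 of 14 rose and 2 fell (median -0.01), against 12.2% and 9.89% of all probe sets. The gene that rose was Fkbp5, a co-chaperone of steroid receptors and a well-known glucocorticoid target, at 1.09 (SE 0.15, adjusted p = 7.6e-06), against 0.46 after Cr (SE 0.16, adjusted p = 0.021), and the metals differed by 0.63 (SE 0.23, adjusted p = 0.038). Hsp90ab1 was at -0.25 after Cd (SE 0.10, adjusted p = 0.075), and its difference between the metals was -1.09 (SE 0.15, adjusted p = 1.5e-06). The metals differed for 12 of these 14 genes, 11 of them lower for Cd (14.2% of all probe sets).

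Mitochondrial chaperones and proteases moved both ways after Cr, with 7 of 14 higher and 5 lower, against 26.0% and 17.1% of all probe sets. After Cd 1 rose and 1 fell, no larger a share than over all probe sets (12.2% and 9.89%). The inner membrane protease subunit Afg3l2 (0.55, SE 0.08) and the J-domain protein Hscb, which serves iron-sulfur cluster transfer (0.49, SE 0.09), were higher after Cr. The matrix protease parts Clpx (-0.50, SE 0.09) and Lonp1 (-0.48, SE 0.08) were lower after Cr. The chaperonin genes Hspd1 and Hspe1 rose in the same livers in which these protease genes fell.

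Of the other small heat shock proteins only 2 of 6 had enough signal to be tested, and 1 rose after Cr: Cryab, the alpha B crystallin, at 0.56 (SE 0.21, adjusted p = 0.034), while it was at 0.30 after Cd (SE 0.21, adjusted p = 0.34). Of the heat shock factors and regulators, 3 of 6 rose after Cr and 0 after Cd, against 26.0% and 12.2% of all probe sets. Hsf1 itself was at 0.39 after Cr (SE 0.09, adjusted p = 0.0011) and -0.0047 after Cd (SE 0.10). Hikeshi, which carries HSP70 into the nucleus, was at 0.51 after Cr (SE 0.08) and 0.07 after Cd (SE 0.05).

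**Figure D4:**
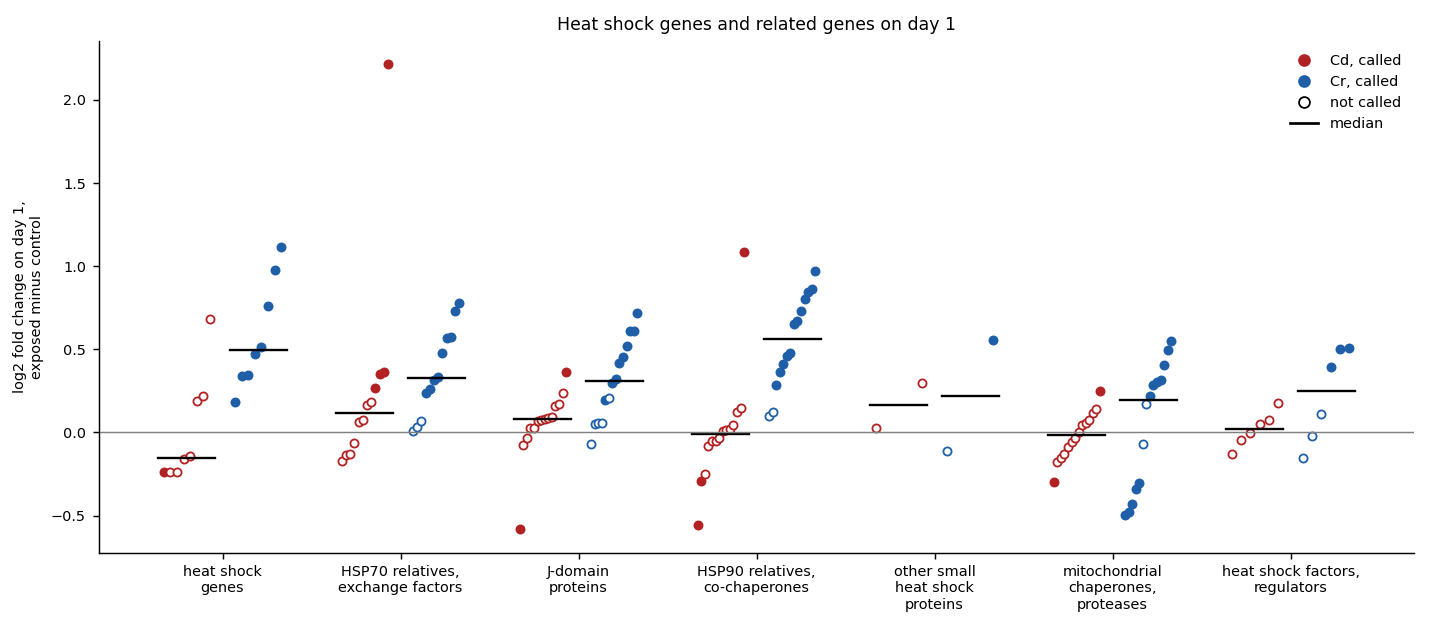
Day 1 log2 fold change, exposed minus same-day control, of the 8 heat shock genes (main probe sets) and of the 62 tested genes in 6 lists of related genes, with Cd left of Cr in each list; points are genes, filled where the adjusted p was at most 0.05, and lines are medians. After Cr most points lie above 0 except among mitochondrial chaperones and proteases, where 5 genes were called lower, and the highest Cd point is Hspa1a at 2.22.

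Without exposure the heat shock genes moved together only in part. Over the 30 control livers, as deviations from the mean of the same metal and day, the 28 pairs of the 8 genes had a median Pearson r of 0.27, and 2 pairs passed (2-sided permutation of livers within metal and day, 100000 resamples, Benjamini-Hochberg over the 28 pairs). The small heat shock protein Hspb8 and Dnajb1 had r = 0.68 (permutation p = 0.0017, adjusted p = 0.023), with r = 0.54 without the 2 livers farthest out in Hspb8, 0.75 in Cd controls and 0.40 in Cr controls. The J-domain pair Dnajb1 and Dnaja1 had r = 0.63 (permutation p = 0.00044, adjusted p = 0.012), with 0.62 without the 2 farthest livers, 0.67 in Cd controls and 0.47 in Cr controls. By Spearman's rho neither passed after adjustment (0.52, permutation p = 0.0069, adjusted p = 0.096 for Hspb8 and Dnajb1, and 0.60, permutation p = 0.0020, adjusted p = 0.056 for Dnajb1 and Dnaja1). The neighbors Hspd1 and Hspe1 had r = 0.51 and rho = 0.46 (permutation p = 0.015 and 0.020, adjusted p = 0.12 and 0.19), with 0.36 in Cd controls and 0.73 in Cr controls. The median r over the pairs was 0.36 in the 15 Cd controls and 0.03 in the 15 Cr controls. A possible link between livers of the same number, described below, was not allowed for in the permutation p-values.

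**Figure D5:**
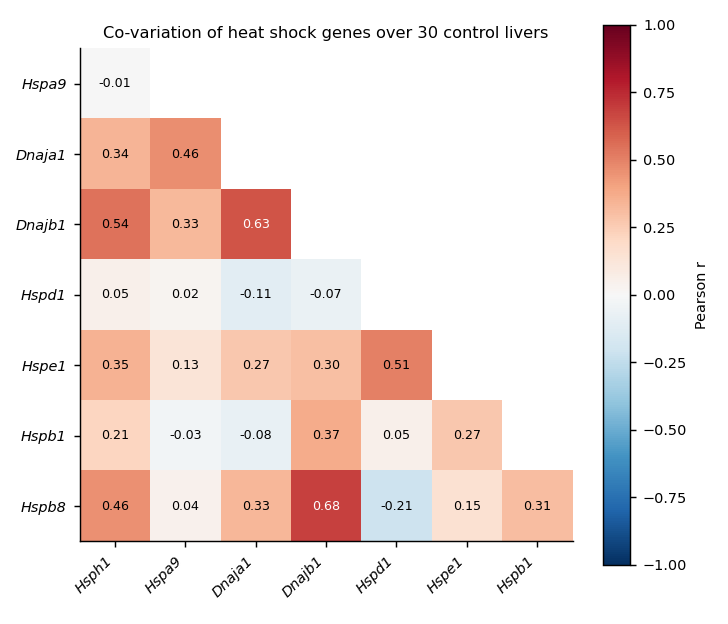
Pearson r between 8 heat shock genes over 30 control livers (15 for Cd and 15 for Cr), as deviations of the log2 signal from the mean of the same metal and day; each cell is 1 of 28 pairs, red above 0 and blue below. The highest cells are those of Dnajb1 with Hspb8 (0.68) and with Dnaja1 (0.63), and Hspd1 lies between -0.21 and 0.05 with the genes other than Hspe1 (0.51).

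Over the 12 group means the 8 genes followed a shared profile, which was highest in Cr-exposed livers of day 1 (0.57 above the members' own means) and between -0.11 and 0.03 in the other 11 groups. The correlation of each gene with the mean of the other 7 was lowest for Hspa9 (r = 0.53) and Hspb1 (0.54) and highest for Hspe1 (0.92). Among 9939 other genes, the 6 most like the profile by Pearson r over the 12 groups were Nif3l1 (0.99), Qrsl1 (0.98), Stoml2 (0.98), Nutf2 (0.98), Kat7 (0.98) and Cnih4 (0.98). Their day 1 log2 fold changes were -0.07 to 0.03 after Cd and 0.46 to 0.74 after Cr. With 1 group far from the other 11, these correlations rest mostly on that group.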

How the data were processed

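RNA of 59 livers had been hybridized to Affymetrix rat genome arrays. As deposited, the table held log2 signals, which the authors had computed in Partek software with RMA (robust multi-array averaging), a method that pulls all arrays to 1 distribution, so that only changes relative to other genes can be seen. The annotation gives 20826 probe sets 1 symbol, 436 several and 9780 none. Probe sets were kept for a metal if their log2 signal was 5 or more on every array of at least 1 group. Each metal was fitted with limma 3.58.1 (R 4.3.3) with 6 group means, and the metals were set against each other in 1 fit of 59 arrays (16911 probe sets). Adjusted p-values (Benjamini-Hochberg) run over all probe sets kept, and intervals are from the same fit. The number of arrays limits the precision.

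The members and gene lists were chosen with earlier results of these data known. In each further list up to 4 genes were named, those with the largest day 1 change among genes called for either metal. The likeness rule names the 6 genes with the highest r. The labels call the livers biological replicates. The fits were tested on simulated data with changes set on day 1. Of 1.25-fold changes, 26% were recovered for Cd and 30% for Cr. Of 1.5-fold changes, 86% and 88% were. A gene not called may thus still have changed by about 1.25-fold. Alternatives were controls pooled over days as in the study, other filters, both metals in 1 fit, a replicate block, quantile normalization, unmoderated variance, a trend in variance, array weights, the mean of a gene's probe sets and each array left out. Python 3.11.15 with NumPy was used for permutations, and promoter sequences are those of RefSeq on GRCr8. Genes on the array are named by its annotation, and no coordinates of the probes were used.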

Additional observations from a re-analysis of the deposited data

Results flagged for a closer look

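Of 96 combinations of a gene and a group checked for a liver far from the others, 1 was found, fewer than the 4.8 that chance gives at about 1 in 20. Hspd1 in Cd control liver 2 of day 7 had a log2 signal of 12.46. The gap of Cd-exposed liver 1 on day 1 did not meet the limit for any of the 8 genes in that group of 4.

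On main probe sets, effects differed between the metals on day 1 for 6 genes, by the test of the difference itself (Cd minus Cr). They were Hspd1 (-0.71), Hspe1 (-0.66), Hspb8 (-0.998), Hspa9 (-0.42), Hsph1 (-0.76) and Dnaja1 (-0.51). Effects of Cr differed between days 1 and 3 for 5 genes (day 1 minus day 3): Hspd1 (0.45), Hspe1 (0.65), Hspb8 (0.88), Hsph1 (1.27) and Dnaja1 (0.34).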

How the results depend on the processing

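The 8 calls after Cr on day 1 numbered 7 to 8 with any array left out, and the 6 differences between metals numbered 5 to 7. The single call after Cd on day 1 became 0 with no filter and 2 with both metals in 1 fit, and was 0 to 1 with an array left out. The differences between days 1 and 3 became 8 after Cr with controls pooled over days, an alternative chosen after seeing the data (5 to 6 with an array left out). After Cd they became 1 with a replicate block, and were 0 to 1 with an array left out, with 1 without Cd-exposed liver 2 of day 7. Under the other alternatives these counts, and the counts of 0 on days 3 and 7, stayed within 1.5 times. The co-varying pairs became 0 by Spearman's rho, 0 in Cd controls alone and 1 in Cr controls alone; the last 2 rest on fewer livers.

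Livers that share a number in the labels are not said to be linked. Exposed and control livers of the same number correlated at a mean of 0.13 (lowest -0.10), others at -0.03, with 17 of 29 pairs over 0.1 and 17 of 29 exposed livers matching best with their own number. This is a hint from the data that livers of the same number vary together. Since not every pair was over 0.1 and no label states a link, the fits kept the livers unpaired. Their p-values thus take no account of such a link, and a replicate block was run only as an alternative. The 1 difference between days 1 and 3 after Cd with a replicate block was that of Hspd1 (adjusted p = 0.046).

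Signs that turned were those of values not called. With an array left out, log2 fold changes on day 1 after Cd were -0.15 to 1.11 for Hspb1 and -0.061 to 0.41 for Hsph1, and day 1 minus day 3 after Cd was -0.19 to 0.28 for Hsph1 and -0.11 to 0.18 for Dnajb1. The lowest of each was without Cd-exposed liver 1 of day 1, and that of Dnajb1 was also below 0 without Cd control liver 1 of day 1. Hspb8 for day 1 minus day 3 after Cd was 0.0050 with pooled controls and 0.052 with the mean of its probe sets, a mean that put Hspa9 for day 1 minus day 3 after Cr at -0.083. The call of Hspa9 after Cr on day 1 was lost with both metals in 1 fit (adjusted p = 0.063) and with the mean of its probe sets (0.070), and that of Dnajb1 with array weights (0.096). With the mean of a gene's probe sets, the difference between metals was called for Dnajb1 (0.044) and not for Hspa9 (0.21). The cause of these changes was not tested.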
